A study of Bos taurus with 15 samples.

Results

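Endometrium of 5 Infertile heifers was compared with that of 5 High-fertile heifers across all measured genes. The 10 libraries were taken by their class label from the 15 of the study, which also has 5 Sub-fertile heifers. All were beef heifers (Bos taurus) biopsied on day 14 of pregnancy. In each, estrus had been synchronised with prostaglandin, GnRH, a progesterone insert and estradiol, and an embryo made in vivo had been placed on day 7 in the uterine horn on the side of the corpus luteum. After a uterine flush a biopsy was taken by forceps, and its polyadenylated RNA was sequenced. Both classes thus carried the same hormones and the same embryo transfer, and every heifer had received an embryo. The rule that put a heifer in a class and the outcome of each flush were not given in the sources used. As a library is 1 heifer, errors within a class describe how animals differ.

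On day 14 the bovine conceptus is about to elongate and still floats free, fed by the secretions of the glands and of the luminal epithelium. It secretes interferon tau, which induces antiviral genes in the endometrium and keeps the corpus luteum alive. The uterine epithelium is a mixture of secretory and ciliated cells, and beneath it lie stroma, vessels and scattered leukocytes, so a biopsy reports the mixture as well as the activity of each cell.

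Markers of endometrium were present in all 10 libraries. On the FPKM scale, which is per length, EPCAM of the epithelium lay between 182 and 475.5, the gland peptide GRP between 1126 and 6605 and VIM of the stroma between 316 and 684.7 over the 10 libraries. Of the trophoblast markers, CDX2 was at up to 0.70 and PAG2 at up to 0.03 FPKM. IFNT2, ELF5 and PAG1 reached 1.11, 2.15 and 7.58 FPKM. PTI was the highest, at 23.2 to 56.7 FPKM in High-fertile and 9.92 to 45.4 FPKM in Infertile libraries. All 6 markers, some of which endometrium also expresses, summed to 14.1 to 23.3 CPM in High-fertile and 11.2 to 28.9 CPM in Infertile libraries. Total counts were 40542008 to 56164970 in High-fertile and 40061511 to 51009815 in Infertile libraries. The labels name no batch, but counts of 372 genes described as pseudogenes or ribosomal RNA divided the study's libraries into sets of 8, 5 and 2. High-fertile replicate 1 and Infertile replicate 2 were the set of 2, with no count of RN18S1 and pseudogenes at 1.09% and 1.21% of counts against 2.59% to 3.27% in the other 8 compared libraries. Infertile replicates 3 and 5 were in the set of 5, marked by LOC100295881 at 42.3 and 45.9 CPM against 0.503 to 1.53 CPM elsewhere. High-fertile replicates 2 to 5 and Infertile replicates 1 and 4 were in the set of 8. The set of 5 held no High-fertile library, so for those 2 Infertile heifers class and set cannot be told apart, and values within the set of 8 are given beside the main results. In such bulk tissue, fewer cells of a type and less RNA per cell cannot be told apart either.

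In edgeR no gene passed the threshold of an adjusted p under 0.05. Of 19962 genes tested, 0 passed in the edgeR quasi-likelihood test, whose smallest adjusted p was 0.435, while 34 (0.170%) passed in DESeq2 and 1 (0.00501%) in limma-voom. At an unadjusted p under 0.05 stood 2201 genes in edgeR, with 1425 (7.14%) higher and 776 (3.89%) lower in Infertile heifers. The 5 heifers of 1 class all lay above the 5 of the other in 444 genes (2.22%), of which 225 (1.13%) were higher and 219 (1.10%) lower. A positive log2 fold change was found in 53.5% of all genes, and the median over all genes was 0.036. The higher and lower counts were close to even in limma-voom, with 985 (4.93%) higher and 1072 (5.37%) lower. The values below therefore describe directions and sizes, none of which is a call in edgeR. DESeq2 called 23 of the genes named below at that threshold, among them ELOVL7, ATP10A, APOO, PPARGC1A, NOTCH4, AZIN1, ODC1, HNMT and RAMP3. Levels are in CPM, counts scaled to library size, values by heifer run in the order of replicates 1 to 5, and errors are the SD over 5 heifers for levels and the SE for log2 fold changes, which are Infertile minus High-fertile.

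Ranked by p among genes that carry a symbol, the first 30 comprised 21 at higher and 9 at lower values in Infertile heifers, each with an edgeR adjusted p of 0.435. In 25 of them the classes did not overlap, a share that their choice by p favours. Among the higher genes were several of lipid and energy metabolism. ELOVL7, an elongase of long-chain fatty acids, stood at 11.9, 9.19, 9.58, 6.01 and 8.89 CPM in High-fertile and at 20.4, 33.9, 21.1, 12.9 and 15.6 CPM in Infertile heifers, a log2 fold change of 1.19 ± 0.246. Every Infertile heifer was above every High-fertile one, with replicate 2 far above the others. PPARGC1A, a coactivator that drives mitochondrial biogenesis, was at 17.95, 20.6, 14.9, 14.2 and 14.9 CPM in High-fertile and 28.9, 24.3, 32.04, 21.2 and 32.3 CPM in Infertile heifers (0.75 ± 0.164). The classes again did not overlap, and the closest pair were High-fertile replicate 2 and Infertile replicate 4. APOO, a subunit of the complex that shapes mitochondrial cristae, was at 10.99 ± 1.70 against 6.88 ± 0.704 CPM without overlap (0.67 ± 0.147), and 0.42 within the set of 8.

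A pair of genes of polyamine synthesis stood beside them. ODC1 is ornithine decarboxylase, the enzyme that starts this synthesis, and AZIN1 is the antizyme inhibitor that keeps it from being degraded. ODC1 was at 66.7, 64.8, 62.4, 52.9 and 62.98 CPM in High-fertile and 71.8, 91.1, 89.6, 80.1 and 98.6 CPM in Infertile heifers (0.48 ± 0.119). AZIN1 was at 191, 211, 197, 160.0 and 171.2 CPM in High-fertile and 222, 237, 278, 269.7 and 324 CPM in Infertile heifers (0.52 ± 0.115). Both genes were lowest among Infertile heifers in replicate 1 and highest in replicate 5, and neither overlapped. The 13 other tested genes of polyamine metabolism, a list added after values were seen, included none at an unadjusted p under 0.05. The median of the 15 genes was 0.10, and SRM and SMS, which make spermidine and spermine, were at -0.095 ± 0.224 and 0.16 ± 0.406.

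HNMT, which inactivates histamine, was at 15.9, 15.1, 12.3, 15.3 and 15.7 CPM in High-fertile and 17.4, 26.6, 29.3, 28.7 and 41.8 CPM in Infertile heifers (0.95 ± 0.215). The High-fertile values were tight, and Infertile replicate 1 was just above them while the other 4 were well clear. Other higher genes without overlap were VMA21, an assembly factor of the vacuolar proton pump, at 132 ± 25.9 against 90.1 ± 5.82 CPM, AHCYL1, a regulator of calcium release, at 196 ± 30.5 against 145 ± 7.76 CPM, and YEATS4, a chromatin reader, at 39.2 ± 11.04 against 23.5 ± 2.69 CPM. EID1, an inhibitor of the acetyltransferase EP300, was at 103 ± 14.4 against 71.7 ± 10.7 CPM and TMED6, a cargo receptor of the early secretory pathway, at 17.7 ± 3.03 against 10.7 ± 1.83 CPM. The log2 fold changes of these 5 genes lay between 0.44 and 0.74. CLCA1, a secreted protein of mucous epithelium, had the steepest change of the 30, at 3.46 ± 0.768. It stood at 0.791, 0.377, 0.393, 0.159 and 0.610 CPM in High-fertile and 0.754, 14.6, 5.17, 2.45 and 2.66 CPM in Infertile heifers, so that Infertile replicate 1 lay inside the High-fertile range and replicate 2 led. SLC9A4, a sodium and proton exchanger of epithelia, was close to the limit of counting, at 0.198, 0.0595, 0.0357, 0 and 0.0814 CPM in High-fertile and 0.293, 0.319, 0.770, 0.467 and 0.690 CPM in Infertile heifers (2.77 ± 0.651). A count of 0 allows up to 0.0536 to 0.0766 CPM, depending on the library, so the 3 lowest High-fertile values were at or near that limit. CCDC89, ZFAND4 and SMIM13 completed the higher genes, at 1.21 ± 0.311, 0.64 ± 0.157 and 0.57 ± 0.142, of which SMIM13 is a small membrane protein whose classes overlapped through Infertile replicate 2.

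**Figure D1:**
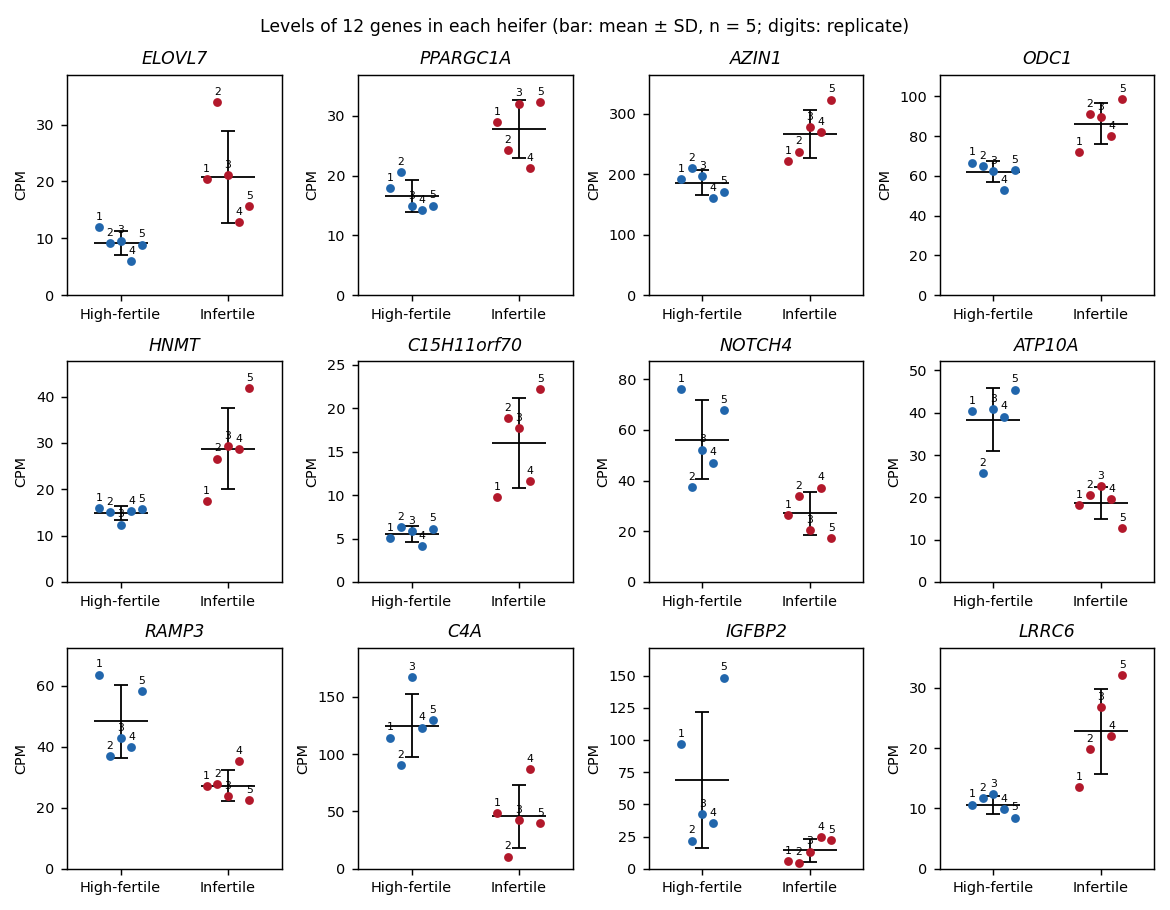
Level in CPM (y axis) of 12 genes in each heifer, with the mean and SD of each class (n = 5). Infertile heifers lie above all High-fertile heifers for ELOVL7, PPARGC1A, AZIN1, ODC1, HNMT, C15H11orf70 and LRRC6 and below them for NOTCH4, ATP10A, RAMP3 and C4A, while IGFBP2 overlaps.

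The 9 lower genes included vascular and transcriptional regulators. NOTCH4, a Notch receptor of endothelial cells, was at 76.1, 37.5, 52.2, 47.02 and 67.9 CPM in High-fertile and 26.2, 33.99, 20.5, 37.2 and 17.3 CPM in Infertile heifers (-1.05 ± 0.231). The classes met without crossing, at 37.5 CPM in High-fertile replicate 2 and 37.2 CPM in Infertile replicate 4. RAMP3, which turns the calcitonin receptor-like receptor into an adrenomedullin receptor, was at 63.7, 37.02, 42.8, 39.96 and 58.3 CPM in High-fertile and 27.2, 27.7, 23.9, 35.3 and 22.5 CPM in Infertile heifers (-0.82 ± 0.195). Of its partners, the receptor CALCRL was at 0.062 ± 0.221 and the ligand ADM at 0.013 ± 0.420, or -0.67 without Infertile replicate 2. The 6 genes of adrenomedullin and calcitonin receptors, a list added after values were seen, had a median of -0.13, or -0.43 without Infertile replicate 2. Within the set of 8 RAMP3 was at -0.52 and NOTCH4 at -0.70, both smaller than over all libraries.

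ATP10A, a phospholipid flippase, was at 40.4, 25.8, 40.9, 39.1 and 45.5 CPM in High-fertile and 18.2, 20.5, 22.7, 19.5 and 12.7 CPM in Infertile heifers (-1.03 ± 0.217). High-fertile replicate 2 was the low one of its class and still above all Infertile heifers. NR1D1, a repressor of the circadian clock, was at 36.9 ± 7.85 against 56.9 ± 7.74 CPM (-0.62 ± 0.158), also without overlap, with High-fertile replicate 3 the highest at 70.7 CPM. Of 16 clock genes, again a list added after values were seen, 4 were higher and 12 lower with a median of -0.22, or -0.056 within the set of 8, and PER1, another clock repressor, was at -0.56 ± 0.230. The hours of biopsy were not given in the sources used. ZHX3, a transcriptional repressor, was at 72.5 ± 10.3 against 107 ± 12.6 CPM, STK19, a nuclear protein named as a kinase, at 142 ± 10.7 against 189 ± 18.8 CPM and BANP, a DNA-binding nuclear protein, at 17.03 ± 2.22 against 24.7 ± 1.40 CPM, all without overlap. SLC25A28, a mitochondrial iron importer, was at 55.7 ± 9.15 against 81.1 ± 9.37 CPM with Infertile replicate 4 inside the High-fertile range. TMCC3, a membrane protein, overlapped as well, at 15.6 ± 4.11 against 32.2 ± 10.3 CPM.

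Among genes with a symbol at a mean of at least 1 CPM whose classes did not overlap, the 10 with the largest folds were all higher in Infertile heifers. BOLA-DQA1, a class II histocompatibility chain, led with a log2 fold change of 5.03 ± 1.48 (edgeR adjusted p = 0.435). It stood at 0.124, 0.218, 0.143, 0.219 and 0.0203 CPM in High-fertile and 4.31, 7.83, 9.59, 0.273 and 2.12 CPM in Infertile heifers. All High-fertile heifers and Infertile replicate 4 were near 0 and the other 4 Infertile heifers clearly above. Genes without a symbol were not ranked here, and LOC101906812 among them had a larger fold, 5.84 ± 1.30. BOLA-DQA1 has near-identical and allelic copies between which reads can be split, and its value is uncertain for that reason. The list of class II genes as a whole had 7 members higher and 10 lower with a median of -0.043, and CD74, the invariant chain that escorts all class II molecules, was at 394 ± 63.3 against 558 ± 116 CPM (-0.50 ± 0.180).

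LYZ2, a lysozyme, was at 1.14, 1.25, 0.536, 0.637 and 1.078 CPM in High-fertile and 8.57, 1.83, 5.21, 2.04 and 1.74 CPM in Infertile heifers (2.06 ± 0.491). Infertile replicates 1 and 3 were the high ones. Lysozyme genes are a family of close copies in cattle, so this value is uncertain too. DGKI, a diacylglycerol kinase, was at 9.03, 12.8, 7.45, 1.89 and 10.2 CPM in High-fertile and 15.9, 16.3, 26.6, 29.7 and 31.3 CPM in Infertile heifers (1.53 ± 0.413). High-fertile replicate 4 was low at 1.89 CPM, and without it the log2 fold change was 1.28. ESRRG, an orphan nuclear receptor that works with PPARGC1A, was at 2.07 ± 0.737 against 0.705 ± 0.0948 CPM (1.55 ± 0.429). CPA4, a carboxypeptidase, was at 2.19 ± 0.827 against 0.788 ± 0.240 CPM and TMEM63C, a membrane channel protein, at 3.59 ± 3.35 against 1.11 ± 0.507 CPM, where Infertile replicate 4 alone stood at 9.56 CPM and the log2 fold change of 1.69 was 0.92 without it. C2H1orf234 was at 1.71 ± 0.494 against 0.495 ± 0.200 CPM (1.78 ± 0.521).

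Genes of motile cilia were the list that stood highest in Infertile heifers by the count of its members. Of 34 members listed in the data, 32 were tested, and all 32 had a positive log2 fold change, 26 of them at an unadjusted p under 0.05, where 7.14% of all genes were higher at that level. In CPM, 5 markers of ciliated cells summed to 46.3 to 111 in High-fertile and 74.5 to 246 in Infertile heifers. The median was 1.03 against 0.036 over all genes. Classes without overlap were found in 0 members, where 1.13% of all genes were higher without overlap. The list mean in log2 CPM was 3.53, 3.59, 3.60, 2.77 and 3.23 in High-fertile and 3.28, 4.47, 4.33, 4.39 and 4.86 in Infertile heifers. Infertile replicates 2 to 5 lay above all High-fertile heifers and Infertile replicate 1 within them. Heifer by heifer, 31, 25, 29 and 28 of the 32 genes were above the High-fertile range in Infertile replicates 2, 3, 4 and 5, and 1 gene was in Infertile replicate 1. With 1 library left out the median went between 0.83 without Infertile replicate 5 and 1.22 without Infertile replicate 1, and 0.65 within the set of 8, where Infertile replicates 1 and 4 were the Infertile heifers.

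The genes came from many parts of the axoneme, the microtubule core of a cilium. DNAH5, an outer dynein arm motor, was at 66.1, 74.2, 79.2, 49.2 and 54.7 CPM in High-fertile and 49.6, 108, 131, 133 and 204 CPM in Infertile heifers (0.95 ± 0.368). CCDC39, part of the ruler that spaces the dynein arms, was at 19.2, 18.6, 19.99, 11.1 and 15.3 CPM in High-fertile and 16.003, 27.5, 53.9, 36.3 and 87.1 CPM in Infertile heifers (1.39 ± 0.433). In both genes Infertile replicate 5 was the highest and Infertile replicate 1 sat among the High-fertile heifers. The radial spoke gene RSPH4A was at 1.09 ± 0.474, the central pair genes SPAG6 and SPAG17 at 1.12 ± 0.406 and 1.21 ± 0.451, and the tektins TEKT1 and TEKT2 at 1.23 ± 0.451 and 1.15 ± 0.417. The largest changes of the list were those of FAM183A, a protein of ciliary microtubules, at 11.7 ± 5.26 against 3.44 ± 1.35 CPM (1.77 ± 0.429), and ZBBX at 17.99 ± 11.98 against 5.59 ± 1.63 CPM (1.69 ± 0.494).

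The regulators of ciliated cells had smaller folds or rested on 1 heifer. FOXJ1, the transcription factor that switches on motile cilia genes, was at 48.9, 58.6, 62.8, 24.7 and 38.9 CPM in High-fertile and 37.95, 101, 44.9, 84.997 and 66.6 CPM in Infertile heifers (0.52 ± 0.437; edgeR adjusted p = 0.615). The classes overlapped widely, with Infertile replicates 2 and 4 high. RFX3, another factor of this programme, was at 46.97 ± 17.3 against 27.97 ± 2.63 CPM (0.75 ± 0.253) and RFX2 at 0.39 ± 0.243. GMNC, which starts the making of many cilia per cell, was at 4.501, 5.18, 4.48, 8.92 and 5.27 CPM in High-fertile and 3.83, 37.5, 7.52, 7.90 and 9.25 CPM in Infertile heifers. Its log2 fold change of 1.22 was 0.33 without Infertile replicate 2, the high one. TMEM190 was the only 1 of the 32 whose sign turned when any of the 10 libraries was left out, from 0.55 to -0.87 without the same heifer.

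Some genes named for their small p or large fold were also cilia genes outside the list. Their choice by p or fold favours differing values without overlap, so they are not separate support for the list. C15H11orf70, whose human counterpart takes part in the assembly of dynein arms, was at 5.02, 6.35, 5.90, 4.12 and 6.14 CPM in High-fertile and 9.76, 18.9, 17.7, 11.6 and 22.2 CPM in Infertile heifers (1.54 ± 0.357). LRRC6, another assembly factor of dynein arms, was at 10.6, 11.7, 12.4, 9.93 and 8.48 CPM in High-fertile and 13.5, 19.8, 26.9, 21.98 and 32.1 CPM in Infertile heifers (1.10 ± 0.274). Both had no overlap, Infertile replicate 1 being just above the High-fertile heifers. CCDC170, a microtubule-associated protein, was at 45.4 ± 16.8 against 24.8 ± 0.862 CPM (0.87 ± 0.221) and C3H1orf87 at 18.8 ± 11.7 against 6.69 ± 0.974 CPM (1.49 ± 0.456). Within the set of 8 the log2 fold changes of these 4 genes were 0.92, 0.73, 0.49 and 1.21.

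The rest of the epithelium had as many genes higher as lower. The 24 glandular and luminal genes had 12 members higher and 12 lower with a median of 0.032. The mean of the ciliated list minus that of this epithelial list, in log2 CPM, was -2.58, -2.68, -2.46, -3.22 and -2.63 in High-fertile and -2.62, -1.63, -1.58, -1.93 and -1.44 in Infertile heifers. Relative to the epithelial genes, too, 4 Infertile heifers were above all High-fertile heifers and replicate 1 among them. EPCAM was at 468 ± 194 against 407 ± 97.5 CPM (0.20 ± 0.266), and its sign turned to -0.059 without Infertile replicate 5 and to -0.18 within the set of 8. Tight junction genes had 12 members higher and 15 lower, with a median of -0.062.

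**Figure D2:**
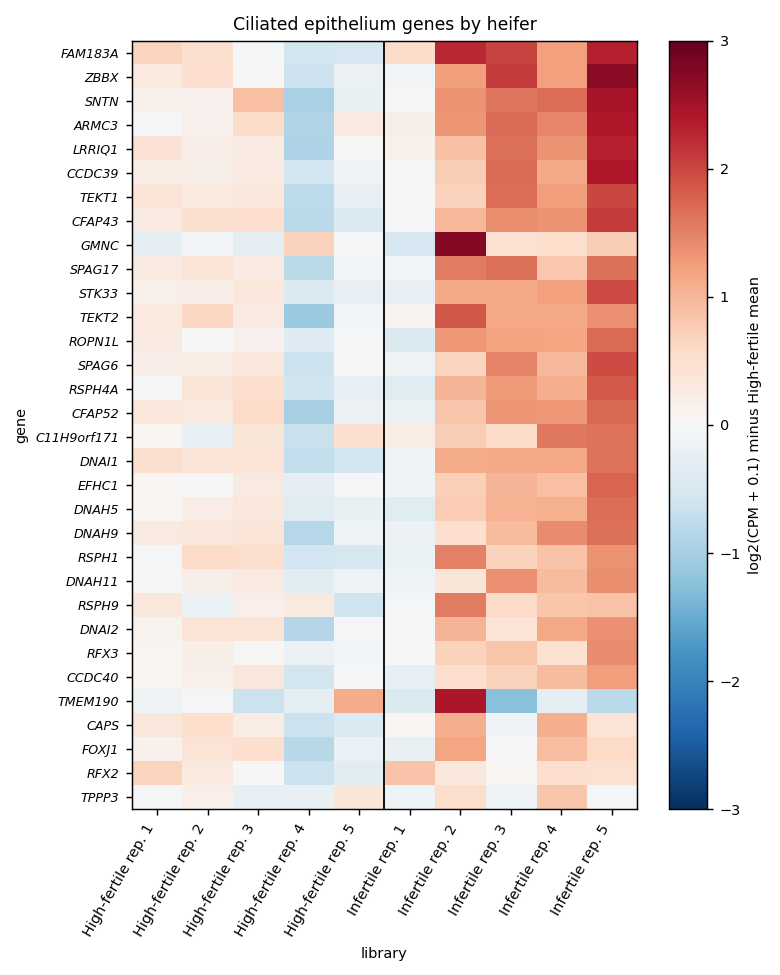
The 32 tested genes of motile cilia (rows) in the 10 libraries (columns), coloured by log2 CPM, with the small constant given on the colour scale, minus the mean of the 5 High-fertile heifers. Infertile replicates 2 to 5 are above that mean in nearly every row, and Infertile replicate 1 is near it.

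Insulin-like growth factors, which feed growth of conceptus and endometrium, reach their receptors through binding proteins. Of 23 tested genes of this system 7 were higher and 16 lower in Infertile heifers, with a median of -0.27, and 0 higher and 4 lower at an unadjusted p under 0.05 against 3.89% of all genes lower. IGFBP2, a binding protein, was at 96.7, 21.9, 42.7, 35.6 and 148 CPM in High-fertile and 6.10, 4.77, 13.3, 24.7 and 22.2 CPM in Infertile heifers (-2.28 ± 0.649; edgeR adjusted p = 0.435). High-fertile replicates 1 and 5 were far above the rest, and the lowest High-fertile heifer lay below 2 Infertile ones. The ligand IGF2 was at 576, 431, 698, 903 and 942 CPM in High-fertile and 334, 688, 362, 618 and 276 CPM in Infertile heifers (-0.64 ± 0.290), with overlap. GRB10, an adaptor that damps insulin and IGF receptor signalling, was at 63.05 ± 5.75 against 81.9 ± 14.02 CPM without overlap (-0.38 ± 0.135), and INSR, the insulin receptor, at 189.8, 173, 181, 173 and 169 CPM in High-fertile and 149, 108, 168, 154 and 158 CPM in Infertile heifers was the other gene without overlap (-0.27 ± 0.113). These were 2 of the 23 genes, where 1.10% of all genes were lower without overlap. The ligand IGF1 was at 176 ± 77.6 against 169.9 ± 34.5 CPM (0.053 ± 0.427), a value whose sign changed with several heifers left out. IGFBP1, a binding protein that rises with conceptus elongation in ruminants, ranged from 0.255 to 189.7 CPM in Infertile and from 47.5 to 126 CPM in High-fertile heifers, so that the Infertile heifers lay on both sides of the High-fertile class. The median of the list went between -0.28 without High-fertile replicate 2 and -0.20 without Infertile replicate 2, and -0.24 within the set of 8.

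Other proteins secreted into the uterine lumen had 6 genes higher and 20 lower, with a median of -0.26. SERPINA14, the uterine serpin of the glands, was at 7.89, 6.67, 10.8, 43.7 and 16.5 CPM in High-fertile and 2.05, 0.0851, 3.40, 11.4 and 13.03 CPM in Infertile heifers (-1.51 ± 0.858; edgeR adjusted p = 0.499). High-fertile replicate 4 was the highest and Infertile replicate 2 was near 0. SPP1, an adhesion protein, had the opposite sign at 2.15 ± 0.978, with Infertile replicates 2 and 3 at 64.99 and 33.2 CPM against a High-fertile range of 1.41 to 11.8 CPM. GRP, the gastrin-releasing peptide of the glands, was at 1882 ± 1344 against 2267 ± 1390 CPM (-0.27 ± 0.509). LGALS15 of the named set was not analysed here.

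Complement, a cascade of plasma and tissue proteins that tags cells for removal, was mostly at lower values. Of 29 genes 11 were higher and 18 lower, 1 higher and 7 lower at an unadjusted p under 0.05 (7.14% and 3.89% of all genes), with a median of -0.32. The 7 lower genes were C4A, SERPING1, C1S, C1R, CFD, C3 and C8G, of which the first 4 belong to the classical pathway. C4A, cleaved by the initiating complex, was at 114, 90.2, 167, 123 and 129.8 CPM in High-fertile and 48.8, 10.6, 42.7, 86.9 and 39.6 CPM in Infertile heifers (-1.45 ± 0.409; edgeR adjusted p = 0.435). Infertile replicate 2 was the lowest by far, and the classes met between Infertile replicate 4 and High-fertile replicate 2 without crossing. C4 genes have near-identical copies, so this value is uncertain. C1S and C1R, the proteases of the initiating complex, were at 204 ± 68.5 against 346 ± 89.2 CPM and at 152 ± 79.8 against 292 ± 86.4 CPM (-0.76 ± 0.235 and -0.94 ± 0.301), and their inhibitor SERPING1 was at 146 ± 53.96 against 259.8 ± 52.9 CPM (-0.83 ± 0.249). Infertile replicate 4 lay within the High-fertile range for all 3 of these genes. C3, on which all pathways meet, was at 66.1 ± 27.5 against 104 ± 31.3 CPM (-0.65 ± 0.275). CFB of the alternative pathway was the higher gene at 2.60, with 1 heifer at 260.0 CPM, and was -0.23 without it. The median of the list went between -0.60 without Infertile replicate 2 and -0.17 without Infertile replicate 5, and -0.42 within the set of 8.

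Interferon-stimulated genes are induced by the signal of the conceptus and by other interferons. Of 49 genes 4 were higher and 45 lower in Infertile heifers, with a median of -0.49, and 0 were higher and 9 lower at an unadjusted p under 0.05, where 7.14% of all genes were higher and 3.89% lower. ISG15 was at 97.01, 47.8, 4.13, 10.2 and 65.1 CPM in High-fertile and 10.5, 6.02, 5.57, 24.8 and 15.9 CPM in Infertile heifers (-1.84 ± 0.903; edgeR adjusted p = 0.461). High-fertile heifers fell into a high group, replicates 1, 2 and 5, and a low pair, replicates 3 and 4, and all Infertile heifers lay between the lowest and the third of them. MX1 had the same high and low High-fertile heifers, at 410.4, 376, 95.8, 119 and 454 CPM in High-fertile and 103, 145, 84.9, 228 and 264 CPM in Infertile heifers (-0.82 ± 0.536). IRF9, which carries the interferon signal to DNA, was at 84.8, 74.04, 43.2, 49.2 and 94.1 CPM in High-fertile and 39.8, 28.7, 27.9, 59.1 and 43.6 CPM in Infertile heifers (-0.79 ± 0.304). Relative to the High-fertile range, 26, 26, 16, 2 and 8 of the 49 genes were below it in Infertile replicates 1 to 5. Infertile replicates 4 and 5 also had 5 and 7 genes above it. With 1 library left out the median went between -0.62 without High-fertile replicate 3 and -0.28 without High-fertile replicate 5, and -0.33 within the set of 8. The receptor IFNAR1 was at 0.12 ± 0.134, and the 18 receptors and regulators had a median of -0.023. IRF3, a sensor-side factor, was at 60.9 ± 11.9 against 88.5 ± 12.6 CPM (-0.54 ± 0.174) and TYK2, a receptor kinase, at 119 ± 17.2 against 139 ± 2.36 CPM without overlap but by a narrow margin (-0.22 ± 0.102).

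B and plasma cell genes were lower in sign for all 22 tested, with a median of -0.90 and 10 at an unadjusted p under 0.05, where 3.89% of all genes were lower. Immunoglobulin genes among them have near-identical copies and are uncertain. The list mean in log2 CPM was 2.56, 1.25, 1.17, 0.86 and 1.44 in High-fertile and -0.099, 1.01, 1.08, 0.86 and -0.024 in Infertile heifers. High-fertile replicate 1 stood above the rest, and Infertile replicates 1 and 5 stood below. High-fertile replicate 1 is in the set of 2 with Infertile replicate 2, and the part of that set in these values was not tested. In CPM, 4 B cell markers summed to 2.03 to 38.3 in High-fertile and 1.13 to 2.72 in Infertile heifers. PAX5, the factor that fixes B cell identity, was at 3.86 CPM in High-fertile replicate 1 and at up to 0.322 CPM in the other 9 heifers, and its log2 fold change of -2.87 was -0.63 without that heifer. Without the same heifer CD22, a B cell lectin, went from -1.55 to -0.34, and CD79B, a chain of the B cell receptor, from -2.71 to -0.37. The median of the list went between -1.15 without Infertile replicate 2 and -0.56 without High-fertile replicate 1, and -0.71 within the set of 8.

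Apart from neutrophils, the other leukocyte lists had medians nearer to that of all genes. T and NK cell genes had 12 members higher and 20 lower with a median of -0.10. CD5, a T cell receptor partner, was at 1.34 ± 0.748 against 2.36 ± 0.399 CPM (-0.81 ± 0.320), and the activating receptor KLRK1 at 1.97 ± 0.464 against 1.07 ± 0.313 CPM (0.88 ± 0.350). Macrophage and dendritic cell genes had 5 higher and 21 lower with a median of -0.27, and in Infertile replicate 1 alone 24 of the 26 were below the High-fertile range. That median was -0.10 without this heifer and -0.59 within the set of 8. CSF1R, the macrophage growth factor receptor, was at 21.7 ± 7.61 against 31.1 ± 5.87 CPM (-0.52 ± 0.226). Mast cell and histamine genes had 2 higher and 12 lower with a median of -0.20, which was -0.088 without Infertile replicate 2, -0.37 without Infertile replicate 4 and -0.42 within the set of 8, with TPSB2, a tryptase, at -1.08 ± 0.446 and IL1RL1, the receptor of interleukin 33, at -1.33 ± 0.460. IL18R1, a receptor chain for interleukin 18, was at 3.81, 2.56, 4.77, 3.30 and 5.19 CPM in High-fertile and 1.63, 2.89, 1.93, 1.30 and 1.46 CPM in Infertile heifers (-1.09 ± 0.307), where Infertile replicate 2 lay inside the High-fertile range. TNFRSF1A, the main TNF receptor, was at 117 ± 21.03 against 152 ± 9.55 CPM without overlap (-0.38 ± 0.131). The 35 interleukin genes had a median of 0.0060 and the 34 chemokine genes one of 0.035, which turned to -0.24 and -0.18 without Infertile replicate 2, and the 18 class I genes one of -0.14. Of the interleukin genes, 0 were higher and 6 lower at an unadjusted p under 0.05 (7.14% and 3.89% of all genes).

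Endothelial genes were mostly lower, 3 higher and 24 lower of 27, with a median of -0.30 and 6 lower at an unadjusted p under 0.05, where 3.89% of all genes were lower. Beside NOTCH4, MMRN2 of the vessel wall was at 95.3, 37.8, 57.1, 38.1 and 71.5 CPM in High-fertile and 37.4, 33.6, 33.2, 46.5 and 21.9 CPM in Infertile heifers (-0.80 ± 0.267). High-fertile replicate 1 was the highest, and the classes overlapped. VWF, the von Willebrand factor, was at 227 ± 70.96 against 347 ± 109 CPM (-0.61 ± 0.281) and PECAM1 at 82.5 ± 14.6 against 97.02 ± 20.3 CPM (-0.23 ± 0.180). Infertile replicates 3 and 5 were the lowest on this list, with 15 and 17 of the 27 genes below the High-fertile range. With 1 library left out the median went between -0.45 without High-fertile replicate 2 and -0.17 without High-fertile replicate 5, and -0.17 within the set of 8, which holds neither Infertile replicate 3 nor 5.

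In the matrix COL18A1, the collagen of basement membranes that yields endostatin, was at 649.5, 638, 753, 694 and 1197 CPM in High-fertile and 535, 405, 199, 597 and 155 CPM in Infertile heifers (-1.06 ± 0.385). The classes did not overlap, with High-fertile replicate 5 far above its class. BGN, a small proteoglycan, was at 85.2 ± 31.8 against 145 ± 36.3 CPM (-0.77 ± 0.246), FBLN2 at 132 ± 68.5 against 217 ± 49.4 CPM (-0.72 ± 0.303) and TIMP1, a protease inhibitor, at 43.9 ± 14.4 against 63.6 ± 10.5 CPM (-0.53 ± 0.213). The collagen and matrix list had 12 genes higher and 14 lower with a median of -0.051, or -0.47 without Infertile replicate 2. Infertile replicate 2 had 19 of 26 genes above the High-fertile range and Infertile replicate 5 had 24 below it. The stromal fibroblast list had a median of -0.087, which turned to 0.086 without Infertile replicate 5. The list of matrix proteases and their inhibitors had one of -0.23, which was -0.055 without Infertile replicate 5 and -0.47 without Infertile replicate 2. Smooth muscle genes varied widely between heifers, 5 markers summing to 693 to 9770 CPM in High-fertile and 477 to 19677 CPM in Infertile heifers. ACTA2, smooth muscle actin, was at 2955, 2125, 1492, 500.2 and 202 CPM in High-fertile and 5786, 756, 736, 155 and 191 CPM in Infertile heifers. The median of the smooth muscle list was 0.018 over all libraries, -1.63 without Infertile replicate 1 and 1.28 within the set of 8, so no direction held.

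**Figure D3:**
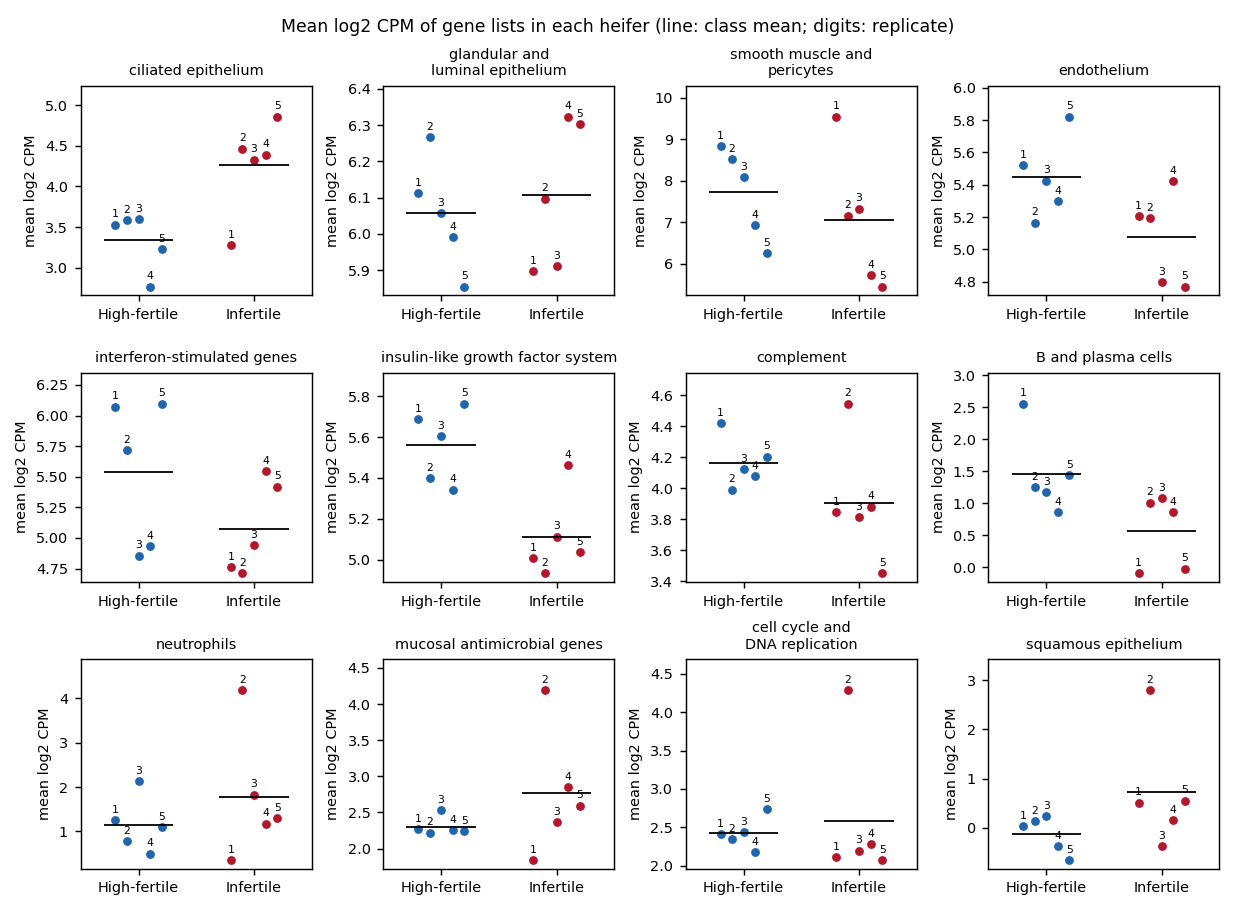
Mean log2 CPM (y axis) of 12 gene lists in each heifer, with the mean of each class as a line. On the ciliated list Infertile replicates 2 to 5 lie above all High-fertile heifers, and on the neutrophil, mucosal, cell cycle and squamous lists Infertile replicate 2 lies apart from the other 9.

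Infertile replicate 2 stood apart in genes of epithelial defence, squamous epithelium and proliferation. S100A12, a calcium-binding protein of neutrophils and inflamed epithelium, was at 5.59, 2.08, 11.2, 2.29 and 4.31 CPM in High-fertile and 3.14, 121, 7.93, 4.67 and 6.46 CPM in Infertile heifers. LAP, a bovine beta-defensin, was at 25.6 CPM in that heifer and at most 0.482 CPM in any other. The secretory immunoglobulin receptor PIGR was at 185 CPM there against 15.7 to 24.7 CPM in High-fertile heifers, and the scavenger DMBT1 at 382 against 2.20 to 26.7 CPM. Without this heifer the log2 fold changes went from 2.49 to 0.12, 5.15 to 0.94, 1.34 to -0.16 and 2.67 to -0.21. The mucosal list had 19 genes higher and 6 lower, with a median of 0.61 that was 0.12 without it, and the 9 tested neutrophil genes, all higher, went from 1.16 to 0.016. Within the set of 8, which does not hold this heifer, these medians were -0.045 and -0.58. In Infertile replicate 2, 8 of the 9 neutrophil genes were above the High-fertile range. S100A8, S100A9 and CSF3R reached 66.7, 33.9 and 2.87 FPKM in Infertile and 6.08, 8.27 and 2.70 FPKM in High-fertile libraries. MPO, another neutrophil marker, was at up to 0.03 FPKM in every library.

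Squamous keratins, on a list added after values were seen, followed the same heifer. KRT13 was at 87.8 CPM in Infertile replicate 2 and at up to 1.61 CPM in the other 9. KRT14, a keratin of basal layers, was higher without overlap, at 0.890, 0.655, 0.518, 0.239 and 0.570 CPM in High-fertile and 1.13, 11.8, 0.952, 1.97 and 3.88 CPM in Infertile heifers (2.78 ± 0.716, and 1.79 without that heifer). The median of the 14 squamous genes was 1.28 with it and 0.61 without it. Cell cycle genes had 26 members higher and 7 lower, with a median of 0.43 that turned to -0.23 without it, and 31 of 33 were above the High-fertile range there. MKI67, the proliferation marker, was at 3.21, 1.98, 2.63, 1.19 and 4.17 CPM in High-fertile and 1.84, 46.7, 1.86, 2.26 and 0.919 CPM in Infertile heifers. CDK1, the mitotic kinase, was also higher in Infertile replicates 3 and 5, at 29.1 and 26.001 CPM against 9.52 to 17.5 CPM in High-fertile heifers, and PCNA, a replication clamp, was at 56.1 ± 9.07 against 45.4 ± 1.80 CPM (0.31 ± 0.130). This heifer is in the set of 2 with few pseudogene counts. Its list means for mucosal, squamous and cell cycle genes were 4.19, 2.79 and 4.29 log2 CPM. They were 2.27, 0.035 and 2.41 log2 CPM in High-fertile replicate 1, the other library of that set. The part of the set in these values was not tested.

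Lipid and mitochondrial lists had medians near that of all genes, with some members that stood out. Of 37 lipid genes 16 were higher and 21 lower with a median of -0.078. At an unadjusted p under 0.05, 5 were higher and 3 lower (7.14% and 3.89% of all genes). Without overlap, 3 were higher and 0 lower (1.13% and 1.10% of all genes). FADS1, a fatty acid desaturase, was at 62.4, 65.04, 64.5, 63.4 and 44.6 CPM in High-fertile and 71.4, 124, 76.5, 84.4 and 109 CPM in Infertile heifers (0.63 ± 0.200) without overlap, as were ELOVL7 and PPARGC1A. ACSL4, which activates arachidonic acid, was at 304 ± 111 against 192 ± 30.4 CPM (0.66 ± 0.212) and APOA1, an apolipoprotein, at 42.1 ± 12.1 against 80.7 ± 27.5 CPM (-0.94 ± 0.315). Of 39 nuclear genes of the respiratory chain 25 were higher and 14 lower, 9 higher and 0 lower at an unadjusted p under 0.05 (7.14% and 3.89% of all genes), with a median of 0.097. NDUFB5, a subunit of complex I, was at 36.3, 35.7, 34.5, 33.5 and 36.2 CPM in High-fertile and 48.2, 43.7, 55.6, 39.1 and 55.6 CPM in Infertile heifers (0.46 ± 0.133), without overlap, and NDUFS1 of the same complex, likewise without overlap, was at 106 ± 14.1 against 82.7 ± 4.61 CPM. These were the 2 of the 39 genes without overlap, where 1.13% of all genes were higher without overlap. NDUFA4 of the chain was at 83.8 ± 7.48 against 67.1 ± 5.80 CPM (0.32 ± 0.0905). In Infertile replicates 3 and 5 the list had 13 genes above and 13 below, and 15 above and 13 below, the High-fertile range. LDHA, which makes lactate, was at 76.1 ± 25.1 against 44.1 ± 15.02 CPM (0.79 ± 0.286), while the 29 genes of glucose uptake and glycolysis had a median of -0.11, or 0.045 without Infertile replicate 5. The amino acid transporters had a median of 0.0075, with SLC38A3, a glutamine transporter, at 2.54 ± 1.65 against 6.23 ± 2.98 CPM (-1.30 ± 0.395).

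Steroid, oxytocin and prostaglandin genes, which set the length of the cycle, had 1 of 51 members at an unadjusted p under 0.05, a share below that of all genes, of which 7.14% were higher and 3.89% lower at that level. It was the prostaglandin synthase PTGS1, lower at 4.08 ± 0.599 against 5.72 ± 0.973 CPM. PGR, the progesterone receptor, was at 9.05, 9.29, 10.1, 15.1 and 6.92 CPM in High-fertile and 12.8, 51.5, 2.47, 10.1 and 1.89 CPM in Infertile heifers (0.64 ± 0.734; edgeR adjusted p = 0.717). Infertile replicate 2 was high and Infertile replicates 3 and 5 low, and without replicate 2 the sign turned to -0.57. OXTR, the oxytocin receptor, was at 39.6, 24.6, 6.97, 5.07 and 14.7 CPM in High-fertile and 68.3, 176, 19.5, 3.45 and 1.43 CPM in Infertile heifers (1.56 ± 1.01, and 0.35 without Infertile replicate 2). Its Infertile heifers spanned the lowest and the highest levels of all 10. ESR1 was at -0.24 ± 0.456, PTGS2, the inducible prostaglandin synthase, at -0.22 ± 0.756. The steroid and oxytocin list had 14 higher and 15 lower with a median of -0.0033 and the prostaglandin list 12 and 10 with 0.020. WNT4, a signal of stromal differentiation, was at -1.43 ± 0.570, and FZD6, a WNT receptor, at 0.51 ± 0.177, within a list at a median of -0.11. Stress genes had a median of 0.11, HSPA1A at -0.70 ± 0.236 and BAG3 at -0.56 ± 0.242. Channels had a median of 0.20, or 0.036 without Infertile replicate 2, where AQP3, a water channel, went from 1.97 to 0.019 without Infertile replicate 2. Red cell and trophoblast genes had few tested members, 5 and 7, with medians of 0.23, or -0.011 without Infertile replicate 5, and 0.19, or -0.043 without Infertile replicate 2.

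**Figure D4:**
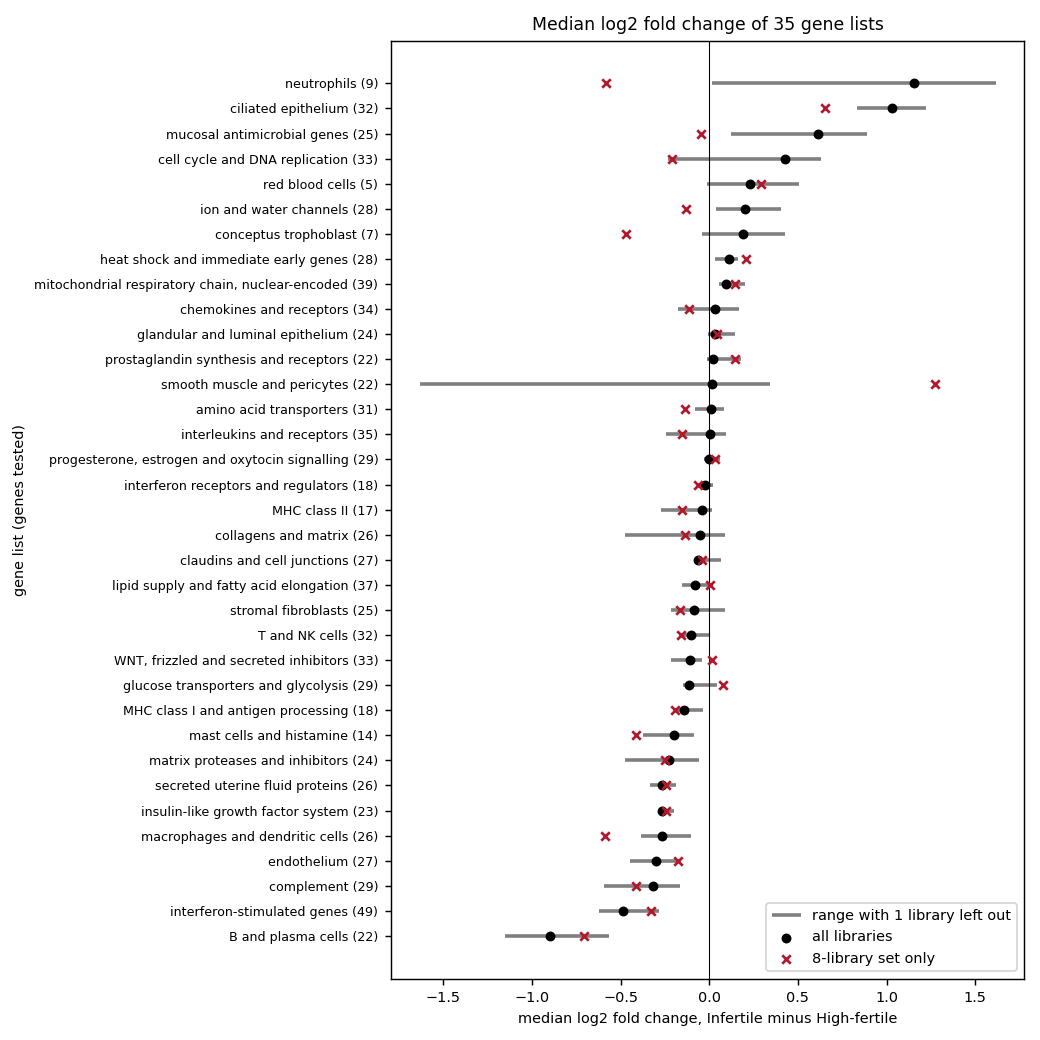
Median log2 fold change (x axis) of 35 gene lists over all libraries (points), its range with each of the 10 libraries left out (lines) and its value in the set of 8 (crosses), with the number of tested genes in brackets. The ciliated list stays above 0 and the B cell, interferon, complement and endothelium lists stay below 0 throughout, while the smooth muscle, cell cycle and neutrophil lists change with 1 heifer or set.

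The counts depended on single heifers. Each of High-fertile replicate 1 and Infertile replicate 2 stood apart from the other 4 of its class by the gap test in over 4% of genes, 809 (4.05%) and 871 (4.36%), against 55 to 507 genes for the other 8. Infertile replicate 2 also had the lowest rank correlation with the other libraries, a median of 0.924 against 0.955 or more. Infertile replicate 5 was the farthest from the High-fertile class, with 32.9% of genes above and 34.3% below its range, and Infertile replicate 4 the nearest, with 20.7% and 18.2%. Leaving out Infertile replicate 1 raised the genes at an unadjusted p under 0.05 from 2201 to 3346, and those without overlap from 444 to 1422. Leaving out Infertile replicate 2 or 4 gave 3262 and 2768 genes at that level and 1127 without overlap each. Leaving out Infertile replicate 3 or 5 gave 1402 and 1287 genes. Among High-fertile heifers the lowest count was 1423 without replicate 5. The genes without overlap, which can only be easier to reach with 1 heifer fewer, were 722, 700 and 739 without High-fertile replicates 1, 2 and 4 and 492 to 581 without the remaining 4 libraries. The smallest edgeR adjusted p ranged from 0.0543 without High-fertile replicate 3 to 0.775 without Infertile replicate 5, and 0 genes passed with any of the 10 left out. Of the 2201 genes, 1927 were also at that level without Infertile replicate 1 and 1101 without Infertile replicate 5.

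**Figure D5:**
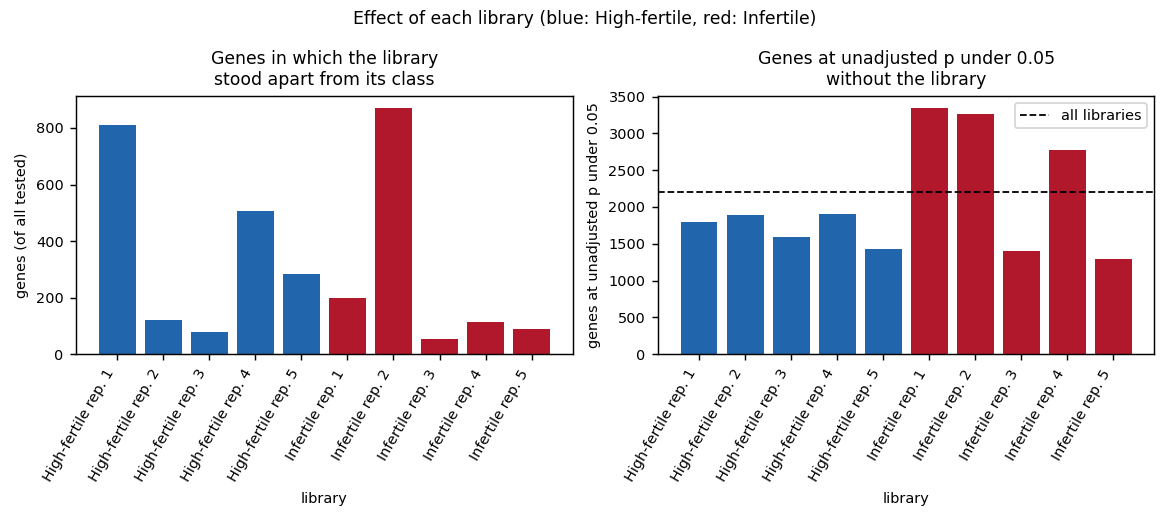
For each of the 10 libraries, the number of tested genes in which it stood apart from its class (left) and the number of genes at an unadjusted p under 0.05 without it (right), with the dashed line at 2201 genes for all libraries. High-fertile replicate 1 and Infertile replicate 2 lead on the left, and the right rises above the line without Infertile replicates 1, 2 and 4.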

How the data were processed

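Polyadenylated RNA of 15 endometrial biopsies was sequenced from stranded libraries, per the labels' protocols. The deposited table held raw counts per gene and FPKM for 32671 gene entries, of which 4555 were at 0 in every library. FPKM values had been computed by the authors per gene length and library size. Per the submitters' processing notes the tools were FastQC, Subread, featureCounts and edgeR and the genome build was UMD3.1. Tool versions, counting parameters and strand setting were not given in the sources used. Without a stated strand setting, overlapping and antisense genes are uncertain. Of the deposited gene names, 27 had been turned into dates, and these genes were tested but not named.

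Counts were tested with edgeR 4.0.16 in R 4.3.3 by the robust quasi-likelihood test on all 15 libraries, which share 1 estimate of spread (12 residual degrees of freedom), with the contrast Infertile minus High-fertile. Genes were kept by filterByExpr, which left 19962, and libraries scaled by TMM. P-values were adjusted by Benjamini-Hochberg over all tested genes. Printed CPM use the TMM-scaled library sizes. Depth was 40061511 to 56164970 counts per compared library, and a count of 0 allows up to 3 counts, for counting error only. A library stood apart in a gene by Dixon's gap test, with a critical value of 0.71 for 5 heifers.

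Named genes were chosen among those with a symbol, leaving out LOC numbers, dates and unnamed entries. They were the 30 with the smallest p, the 10 with the largest fold among non-overlapping genes at a mean of at least 1 CPM, the 2 of smallest p in each of 35 gene lists and a set of 19 genes of endometrial interest; further list members were named to describe a list, and MSMB and a group of transporter genes after their values were seen. The comparison, the lists and the genes were chosen with earlier results of these data known, and 4 lists were added after values were seen. Library sets came from average-linkage clustering on log2 CPM of 372 pseudogene and ribosomal RNA genes. Only the edgeR quasi-likelihood fit without a covariate was run on simulated counts. Alternatives were RLE scaling, no filter or a filter of 1 CPM in 5 libraries, DESeq2 1.42.0, limma-voom (limma 3.58.1), the 10 compared libraries alone, library set as a covariate or a restriction, and each library left out in turn. Replicate numbers follow accession order and pair nothing. Sub-fertile libraries entered the gene filter, scaling, fit, library sets and rank correlations, but no comparison of classes.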

Additional observations from a re-analysis of the deposited data

Results flagged for a closer look

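In 234 groups of 5 heifers (117 named genes in both classes), 17 groups, or 7.26%, had a heifer that stood apart from the other 4 by the gap test. Over all tested genes, High-fertile replicates 1 to 5 stood apart in 4.05%, 0.606%, 0.401%, 2.54% and 1.41%. Infertile replicates 1 to 5 did so in 0.992%, 4.36%, 0.276%, 0.566% and 0.451%. As a class has at most 1 such heifer per gene, these shares add up within it. The named genes were thus not flagged more often than all genes. Infertile replicate 2 was the highest of its class in 4 of the 17 groups, S100A12 at 121 CPM, LAP at 25.6 CPM, CLDN10 at 219 CPM and AQP3 at 5.28 CPM, genes of neutrophils, defensins, tight junctions and water channels. High-fertile replicate 1 was the highest for the B cell genes CD79A at 7.07 CPM and MS4A1 at 20.9 CPM.

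Among lower values, High-fertile replicate 4 was apart for ODC1 at 52.9 CPM, DGKI at 1.89 CPM, C3H1orf87 at 5.01 CPM and TMEM63C at 0.279 CPM. High-fertile replicate 2 was apart for ATP10A at 25.8 CPM, replicate 3 for HNMT at 12.3 CPM and replicate 5 for CCDC89 at 0.956 CPM. Higher values were found in High-fertile replicate 3 for NR1D1 at 70.7 CPM, in replicate 2 for KLRK1 at 1.63 CPM and in replicate 5 for COL18A1 at 1197 CPM. Infertile replicate 4 was the highest for TMEM63C at 9.56 CPM.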

How the results depend on the processing

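No gene passed an adjusted p under 0.05 in edgeR under any scaling, filter, set of libraries or library left out, while DESeq2 called 34 genes, 23 of them among the named genes, and limma-voom called 1, MSMB, at 0.359 ± 0.0755 against 0.0238 ± 0.0532 CPM. Genes at an unadjusted p under 0.05 numbered 904 within the set of 8 and 1287 to 3346 with 1 library left out. The other settings gave 1529 to 2631 against 2201, with 846 higher and 683 lower with the library set as a covariate and 423 higher and 481 lower within the set of 8. Genes without overlap numbered 2728 within the set of 8, 1500 without the set of 2 and 492 to 1422 with 1 library left out, when fewer heifers had to be separated. The causes of the other differences between counts were not tested. No paired analysis was possible because replicate numbers only follow accession order.

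Among the genes named by rule, some signs turned. Within the set of 8 the log2 fold changes were -0.088 for EHF, -0.49 for S100A8, -0.36 for S100A12, -0.32 for CDK1, -0.10 for CLDN10, -0.12 for AQP3, -0.18 for EPCAM, -0.28 for HBB, -0.25 for IGF1 and 0.41 for PTGS2. Without the set of 2 they were -0.12 for AQP3, -0.61 for PGR, 0.62 for PTGS2, 0.15 for IGFBP1, -0.086 for IGF1 and 0.033 for PTPRC. In limma-voom they were -0.026 for HBB, -0.25 for PGR, -0.043 for IGF1 and -0.67 for ACTA2. With the library set as a covariate they were -0.35 for HBB, -0.75 for CDX2, 0.20 for ESR1, 0.15 for FOXA2, -0.34 for IGF1 and 0.068 for GRP. With 1 library left out they ranged from -0.62 to 1.09 for HBB, -0.57 to 0.93 for PGR, -0.18 to 0.081 for FOXA2, -0.60 to 0.31 for PTGS2, -0.21 to 0.23 for IGF1, -0.80 to 0.17 for GRP, -1.65 to 0.50 for ACTA2, -0.059 to 0.35 for EPCAM and -0.25 to 0.034 for PTPRC. The signs of the other genes named by rule held under every setting. At this depth genes near 0.0536 to 0.0766 CPM rest on about 3 counts.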

Other observations

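A group of genes without a symbol was higher in 3 Infertile heifers, a pattern found after their values were seen. LOC523126, described as multidrug resistance-associated protein 4-like, a family of transporters that export prostaglandins and other anions, stood at 0.0495, 0.119, 0.322, 0.0199 and 0.122 CPM in High-fertile and 5.45, 2.06, 4.33, 0.0973 and 0.204 CPM in Infertile heifers. LOC789637, of the same description, stood at 0.124, 0.357, 0.0893, 0.0597 and 0.305 CPM in High-fertile and 3.27, 1.62, 2.65, 0.311 and 0.204 CPM in Infertile heifers. In both, Infertile replicates 1, 2 and 3 were above all other heifers and Infertile replicates 4 and 5 lay within the High-fertile range. LOC101906812, an uncharacterised gene, stood at 0.0495, 0.0794, 0, 0.0995 and 0.163 CPM in High-fertile and 10.3, 3.72, 8.29, 0.428 and 0.332 CPM in Infertile heifers, with the same 3 heifers high. Their log2 fold changes were 4.21 ± 1.21, 3.09 ± 0.830 and 5.84 ± 1.30, each at an edgeR adjusted p of 0.435. The classes did not overlap for LOC101906812, whose fold was larger than that of any of the 10 genes with a symbol named for their fold. The first pair are near copies of each other by name, between which reads can be split, and their values are uncertain. Of the 3 high heifers, Infertile replicate 1 is in the set of 8, replicate 2 in the set of 2 and replicate 3 in the set of 5. The part of the library sets in these values was not tested.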
